A study of Capra hircus with 2 samples.

Results

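The genes described here are 4 keratins of the epidermis, KRT5, KRT14, KRT1 and KRT10, chosen by symbol from the 27137 genes of the deposited matrix. They were read in 13051 skin cells of Liaoning cashmere goats (Capra hircus) by droplet single-cell RNA sequencing with a 3' kit. The skin came from the scapular region of 2 healthy goats in anagen, the growth phase of the hair cycle, and each goat gave 1 library. The deposited cell table names one library CT-LCG, the coarse type, with 3443 cells, and the other FT-LCG, the fine type, with 9608 cells. The sample labels do not tie a goat to a type, so the types are taken here from the library names, and fibre type cannot be told apart from goat, dissociation or library. No age, sex or treatment is given in the sources used here. With 1 library per type no test between types was possible, and all intervals are 95% intervals for counting error only.

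Keratins are the intermediate filament proteins of epithelial cells, and a filament is built from a type II and a type I chain in equal parts. In the epidermis the dividing basal layer makes the type II keratin KRT5 with the type I keratin KRT14, and cells that leave this layer stop making them and turn to KRT1 (type II) with KRT10 (type I). The outer root sheath of the hair follicle is continuous with the basal layer and also makes KRT5 and KRT14. KRT5 with KRT14 is called the basal pair below, and KRT1 with KRT10 the suprabasal pair.

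The 4 genes carry the identifiers 102175207 (KRT5), 102178106 (KRT14), 102175951 (KRT1) and 102168294 (KRT10), and each matched a protein-coding gene of the RefSeq table of goat assembly ARS1.2. There, the type II genes KRT1 and KRT5 lie on chromosome 5 with 5 coding genes between them, and the type I genes KRT10 and KRT14 lie on chromosome 19 with 54 between them. KRT1 sits between KRT77 and KRT2, KRT5 next to KRT6A, KRT10 next to KRT12 and KRT14 next to KRT9. The 2 members of a filament pair are therefore on different chromosomes. The build used to count the reads is not stated clearly in the sources used here, so no coordinates are given.

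Depth differed between the libraries, with a median of 2314 UMIs per cell (range 729 to 172185) in CT-LCG and 6121.5 (630 to 190503) in FT-LCG. A UMI marks 1 captured RNA molecule. Among the cells, 11 barcodes occurred in both libraries (22 cells), and leaving these cells out moved the co-detection and ratio results by less than counting error. The deposited matrix also holds 2659 CT-LCG and 1589 FT-LCG barcodes that the cell table did not keep, with medians of 716 and 607 UMIs. In endothelial-like cells, which should make none of the 4 keratins, all 4 were nonetheless found, so detection alone is a weak sign of expression, and shares of cells with a UMI are given with the endothelial share.

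The 4 keratins together took 4.75% of all CT-LCG UMIs and 4.64% of all FT-LCG UMIs, but the division between the pairs differed. The suprabasal pair led in CT-LCG and both pairs were near equal in FT-LCG. A level is the sum of a gene's UMIs over a library's cells, per 10000 UMIs of all genes, and since a 3' kit counts 1 end of each transcript they were not scaled by length. Capture at the 3' ends of the 4 genes may differ, so a comparison between genes is one of UMIs.

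KRT5 stood at 25.9 (interval 25.8 to 26.1) in CT-LCG, rank 75 of all genes, and at 83.7 (83.5 to 83.9) in FT-LCG, rank 9. KRT14 stood at 49.7 (49.5 to 50.0), rank 15, and at 146 (145 to 146), rank 2. Both basal keratins were thus higher in FT-LCG. KRT1 stood at 165 in CT-LCG, rank 2, and at 76.3 in FT-LCG, rank 12. KRT10 was the most abundant transcript of all in both libraries, at 234 and 158. Both suprabasal keratins were higher in CT-LCG.

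Single cells spread widely around these totals. In CT-LCG the median cell held 15.3 UMIs per 10000 of KRT5 and 22.9 of KRT14, with 95th percentiles of 131 and 227. Its medians of KRT1 and KRT10 were 122 and 143, with 95th percentiles of 367 and 472. In FT-LCG the medians were 81.7 for KRT5, 109 for KRT14, 30.9 for KRT1 and 67.2 for KRT10. For KRT1 in FT-LCG the 25th percentile was 4.93 and the 75th 91.0, so that cells with a low and with a high level were both common.

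Nearly every cell held at least 1 UMI of each gene before depth was matched: 90.4% for KRT5, 95.6% for KRT14, 99.9% for KRT1 and 100% for KRT10 in CT-LCG, and 98.4%, 99.4%, 96.5% and 99.2% in FT-LCG. To compare shares, each cell was thinned at random to 1000 UMIs, which left 3074 CT-LCG and 8569 FT-LCG cells and left out 369 and 1039 shallower ones. The thinned shares were 64.5% for KRT5, 71.2% for KRT14, 93.6% for KRT1 and 95.2% for KRT10 in CT-LCG. In the 48 endothelial-like cells of that library (median depth 1788 UMIs before thinning) they were 56.3%, 56.3%, 93.8% and 87.5%. The KRT1 share of CT-LCG therefore lay at that of its endothelial-like cells and cannot alone be read as expression. The intervals of the other 3 genes overlapped the wide endothelial ones (41.2 to 70.5% for KRT5 and KRT14, 74.8 to 95.3% for KRT10). In the fibroblast-, T cell- and mast cell-like cells of CT-LCG the KRT1 shares were lower, at 75%, 75.5% and 73.4%. Those of KRT5 were 37%, 39.6% and 32.8%, of KRT14 48%, 49.1% and 31.25%, and of KRT10 86%, 92.5% and 81.25%. The reading of CT-LCG thus depends on the cluster taken as background. In FT-LCG the thinned shares were 83.8%, 84.7%, 70.8% and 78.9% for KRT5, KRT14, KRT1 and KRT10, against 51.5%, 64.7%, 44.1% and 63.2% in 136 endothelial-like cells (median depth 2789 UMIs). All 4 FT-LCG shares were above those of the endothelial-like cells. The fibroblast-like shares were lower too, at 68.2%, 73.6%, 49.1% and 63.6%, as were the T cell-like ones, at 45.7%, 67.4%, 56.5% and 65.2%. The T cell-like intervals of KRT1 (41.1 to 71.1%) and KRT10 (49.8 to 78.6%) overlapped those of all cells. In macrophage- or dendritic-like cells the KRT14 share was 88.6%, above that of all cells. The reading of FT-LCG thus also depends on the cluster taken as background.

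A stricter limit was set from cells that should lack these keratins, after the data had been seen. For each gene and library it was the 95th percentile of the thinned count in the fibroblast-, endothelial-, T cell- and mast cell-like clusters. It came to 2, 4, 8 and 9 UMIs for KRT5, KRT14, KRT1 and KRT10 in CT-LCG, and to 7, 11.6, 4.6 and 7 in FT-LCG. Above it lay 35.8%, 30.5%, 60.6% and 60.2% of CT-LCG cells and 52.2%, 47.2%, 41.1% and 45.5% of FT-LCG cells. By this limit each suprabasal keratin was held by a larger share of cells in CT-LCG than in FT-LCG, and each basal keratin by a smaller one. The level of each gene differed between the libraries in the same direction. Within each library KRT5 exceeded KRT14 by this share but not by level.

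Above the non-epithelial limit, genes of a pair were co-detected more often than the product of their shares, and genes across the pairs less often. At 1 UMI and 1000 UMIs per cell, KRT5 and KRT14 were found together in 55.9% of CT-LCG cells and 76.8% of FT-LCG cells, 1.22 and 1.08 times the product of their single shares. KRT1 and KRT10 were found together in 91.0% and 63.9%, or 1.02 and 1.14 times the product. The 4 combinations of a basal with a suprabasal keratin stood at 1.00 to 1.01 times the product in CT-LCG and 0.98 to 0.99 in FT-LCG. A UMI of each pair was found in 78.1% and 78.4% of cells, and UMIs of all 4 genes in 51.3% and 47.0%. The endothelial-like cells of CT-LCG held KRT5 with KRT14 in 37.5%, KRT1 with KRT10 in 81.3% (67.4 to 91.1%) and both pairs in 75% (60.4 to 86.4%), so the last 2 shares of CT-LCG lay within the background's interval. In those of FT-LCG the values were 40.4%, 29.4% and 63.2% (54.5 to 71.3%), all below the shares of all cells.

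Above the non-epithelial limit the ratios moved apart. Single shares were also lower there, which leaves a ratio more room to differ from 1. The part this had in the move was not tested. KRT5 with KRT14 stood at 1.97 (CT-LCG) and 1.55 (FT-LCG) times the product, and KRT1 with KRT10 stood at 1.45 and 2.02. All 4 combinations across the pairs were below the product, at 0.80 to 0.88 times it in CT-LCG and 0.68 to 0.73 in FT-LCG. Of CT-LCG cells above the limit for KRT1, 87.5% were also above it for KRT10, while 18.2% of the cells below it for KRT1 were. In FT-LCG these shares were 91.9% and 13.1%. KRT14 was found above its limit in 60.3% of CT-LCG cells with KRT5 and 13.9% of those without, and in 73.3% and 18.7% in FT-LCG. Of the endothelial-like cells 6.25% and 1.47% were above the limit for a gene of each pair. These cells are among those that set the limit, so their low shares follow from its definition and are no separate check. Across the pairs, 48.7% of CT-LCG cells above the limit for KRT5 were above that for KRT1, against 67.2% of the cells below it for KRT5. In FT-LCG these shares were 27.7% and 55.6%.

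**Figure D1:**
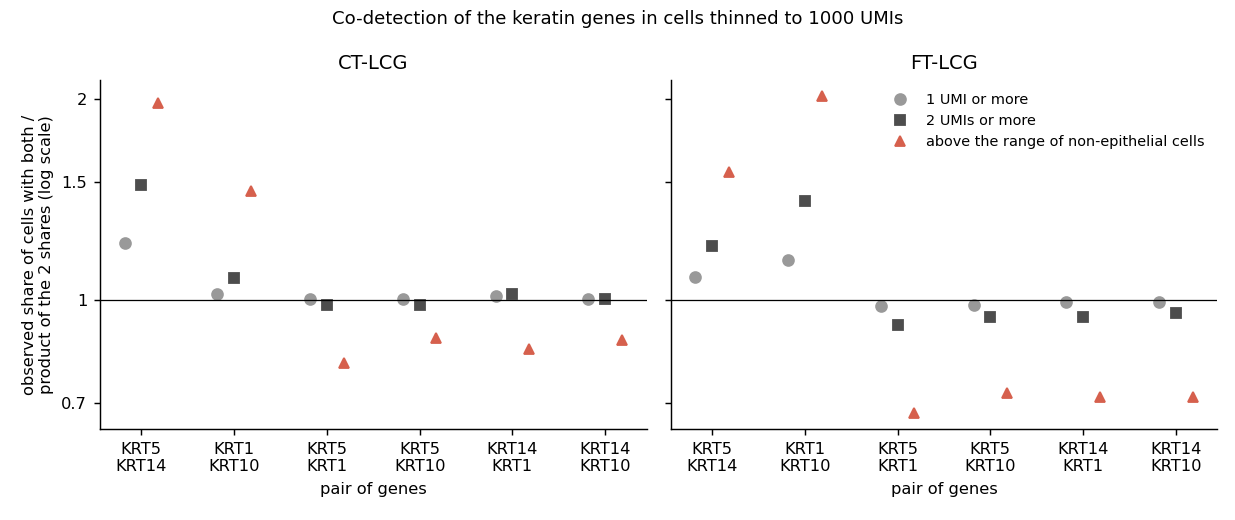
Observed over expected co-detection of the 6 gene pairs in cells thinned to 1000 UMIs, where expected is the product of the 2 single shares, for CT-LCG and FT-LCG under 3 rules of detection (1 UMI, 2 UMIs, above the limit from non-epithelial clusters). Under the strictest rule the points of KRT5 with KRT14 and of KRT1 with KRT10 lie between 1.45 and 2.02 and those of the 4 cross pairs between 0.68 and 0.88.

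Correlations of the thinned counts, as log2(1 + count), gave the same picture as a description over cells of 1 library each, which share depth and free RNA. KRT5 with KRT14 had r = 0.69 for CT-LCG (n = 3074) and 0.76 for FT-LCG (n = 8569), and KRT1 with KRT10 had r = 0.81 and 0.86. Across the pairs r ran from -0.29 to -0.19 in CT-LCG and from -0.40 to -0.33 in FT-LCG. Within the 3 epidermal clusters alone, the basal epidermal-like, the granular layer-like and an unnamed one led by KRT4, the cross-pair values were more negative, from -0.68 to -0.59 and from -0.70 to -0.61. In the 4 non-epithelial clusters that set the limit they were positive, from 0.36 to 0.44 in CT-LCG (n = 265) and from 0.19 to 0.29 in FT-LCG (n = 309). The 3 epidermal clusters were put together after the data had been seen. They are those with the highest levels of the basal or of the suprabasal keratins, so their more negative values are partly set by this choice.

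The cells above the limit for at least 1 gene of each pair were mostly shallow. They numbered 887 of 3074 for CT-LCG (28.9%) and 2088 of 8569 in FT-LCG (24.4%), with median depths of 1221 and 1475 UMIs. Cells above it for the basal pair alone made up 15.9% and 36.7%, with median depths of 6198 and 8211.5 UMIs, and those for the suprabasal pair alone 38.9% and 24.4%, with 8303.5 and 11310. Under 1000 UMIs outside the 4 genes, 71.9% and 71.8% of the thinned cells were above it for both pairs. A cell of this class stayed after thinning only where its UMIs of the 4 genes brought it to 1000. That left 160 of 529 cells in CT-LCG and 181 of 1220 in FT-LCG, so these shares are partly set by selection on the counted genes. From 20000 to under 50000 UMIs the shares were 10.7% and 8.61%.

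The cells of both pairs did not fall mainly in the epidermal clusters. Of them 58.9% (CT-LCG) and 52.6% (FT-LCG) were in the inner root sheath-like cluster, and within it 65.2% and 82.1% of cells were above the limit for both pairs. The share was 29.7% and 8.54% among basal epidermal-like cells, 12.3% and 25.6% among KRT4-led cells, and 5.84% and 4.57% among granular layer-like cells. That inner root sheath-like cluster had median depths of 1080 and 1120 UMIs, the lowest of all clusters. Its basal share, the UMIs of the basal pair among those of all 4 genes, had a median of 18.8% for CT-LCG and 50.0% for FT-LCG. In the barcodes that the cell table did not keep the medians were 19.0% and 50.0%. The part of RNA outside cells in the counts of these shallow cells was not tested.

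Per cell, the basal share placed most cells between the extremes. It was computed in the 3430 CT-LCG and 9477 FT-LCG cells with at least 10 UMIs of the 4 genes. Cells above 90% are called basal-dominant, cells under 10% suprabasal-dominant, and the rest mixed. Basal-dominant cells made up 4.29% (interval 3.63 to 5.02%) in CT-LCG and 30.0% (29.1 to 31%) in FT-LCG. Suprabasal-dominant cells made up 34.3% (32.7 to 35.9%) and 15.9% (15.2 to 16.6%), and mixed cells 61.4% (59.7 to 63.0%) and 54.1% (53.1 to 55.1%). The mixed class was the largest in both libraries, while basal-dominant cells were the fewest in CT-LCG and suprabasal-dominant cells in FT-LCG. With limits of 20% and 80% suprabasal-dominant cells were the largest class of CT-LCG, at 56.4% against 36.4% mixed. In the 3 epidermal clusters alone mixed cells made up 26.7% of CT-LCG cells, with 62.8% suprabasal-dominant, and 30.4% of FT-LCG cells, the smallest class there beside 38.1% basal- and 31.5% suprabasal-dominant. These clusters were put together after the data had been seen. They have the highest and lowest median basal shares of all clusters, so their smaller mixed class is partly set by this choice.

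The histogram of the basal share had more than 1 peak. In CT-LCG 25.6% of cells lay under 5%, a second group lay between 10% and 25% (10.8%, 11.3% and 11.1% of cells in successive steps of 5%), and 1.87% lay above 95%. In FT-LCG 12.8% of cells lay under 5%, 21.9% above 95%, and a middle group peaked between 50% and 55% with 7.78% of cells. Each middle group sat at the median of the barcodes not kept. The spread of the kept cells was 5.36 times (CT-LCG) and 5.92 times (FT-LCG) what binomial sampling around 1 common share would give, and that of the barcodes not kept, which are shallower, 1.66 times in both. The observed standard deviations were closer, at 27.2 and 35.2 percentage points in kept cells and 13.1 and 17.8 in the barcodes not kept. Within 2 percentage points of the 10% limit lay 283 CT-LCG and 191 FT-LCG cells, and within 2 points of the 90% limit 55 and 420.

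**Figure D2:**
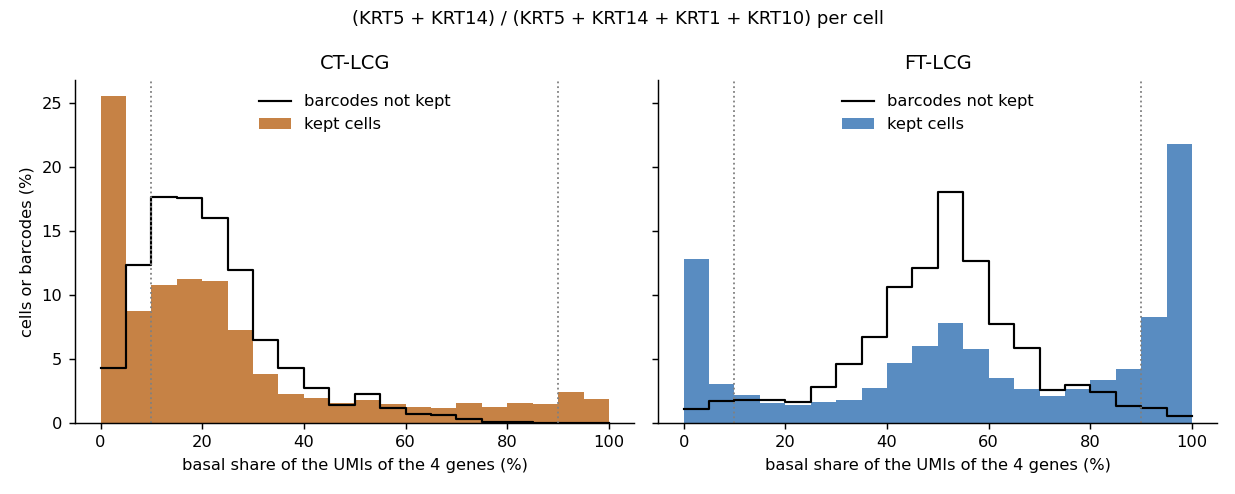
Histogram of the basal share, (KRT5 + KRT14) over all 4 genes, in steps of 5% for CT-LCG and FT-LCG, in kept cells and in barcodes not kept, as percent of those with at least 10 UMIs of the 4 genes. The kept cells of FT-LCG show groups near 0, near 100% and in the middle. Those of CT-LCG show groups near 0 and in the middle, with 1.87% of cells above 95%. The barcodes not kept show 1 middle group, with medians of 19.0% (CT-LCG) and 50.0% (FT-LCG).

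Clusters, which were made without the 4 genes, differed widely in their basal share. The basal epidermal-like cluster had a median of 82.6% (CT-LCG) and 96.8% (FT-LCG), and the outer root sheath- or bulge-like cells one of 59.2% and 93.8%. At the other end were the KRT4-led cluster, at 1.02% and 7.49%, and the granular layer-like cluster, at 0.747% and 4.22%. The fibroblast-like (19.0% and 53.7%), endothelial-like (19.0% and 50.0%) and T cell-like (20.0% and 51.9%) clusters lay near the barcodes not kept. In the fibroblast-like cells the spread was 0.994 times the binomial one in CT-LCG but 1.82 times in FT-LCG, where 9.26% of them were basal-dominant. The macrophage- or dendritic-like cluster stood apart, at 18.3% in the 30 CT-LCG cells and 92.6% in the 71 FT-LCG cells.

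**Figure D3:**
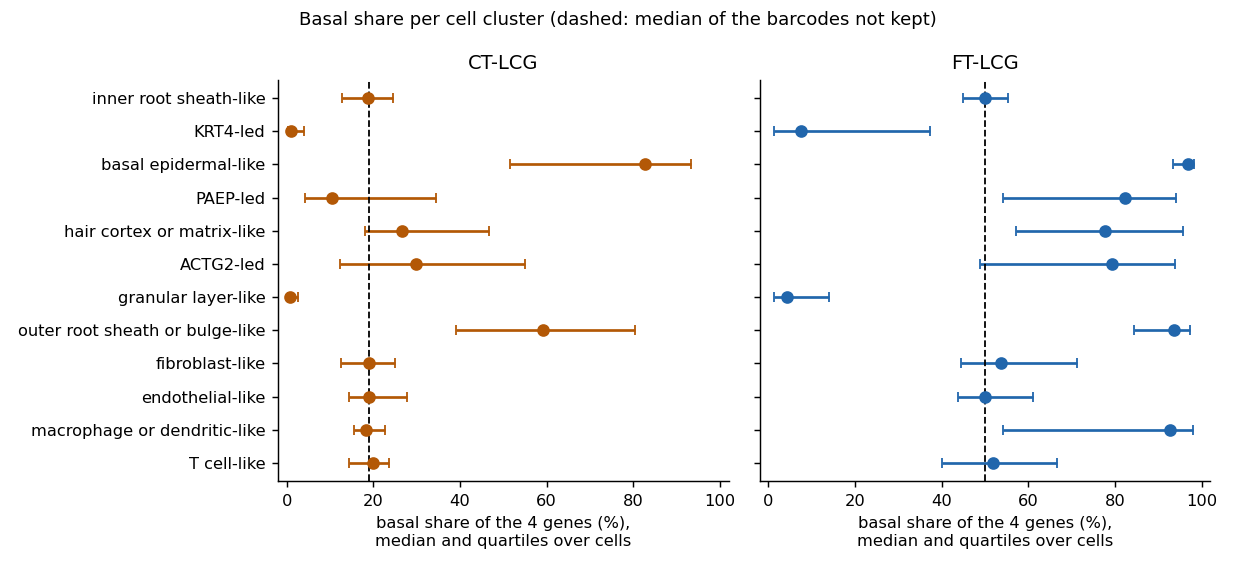
Median basal share of the cells of each cluster in CT-LCG and FT-LCG, with bars from the 25th to the 75th percentile and a dashed line at the median of the barcodes not kept. The basal epidermal-like cluster lies highest, the KRT4-led and granular layer-like clusters lowest, and the fibroblast-, endothelial- and T cell-like clusters lie near 20% (CT-LCG) and 50% (FT-LCG).

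Within the pairs, KRT5 gave 34.3% of the basal pair's UMIs for CT-LCG and 36.5% for FT-LCG, and KRT1 gave 41.4% and 32.6% of the suprabasal pair's. The type II keratins together made up 40.2% and 34.5% of the UMIs of all 4 genes. KRT5 gave 32.2% and 32.4% of its pair in the basal epidermal-like cluster and 27.2% and 38.7% in the KRT4-led cluster. Among granular layer-like cells, where both basal keratins were low, it gave 71.5% and 53.9%. In outer root sheath- or bulge-like cells it was 42.7% and 45.2%. KRT1 gave 45.8% and 39.1% of its pair in basal epidermal-like cells, 41.1% and 32.6% in KRT4-led cells and 36.9% and 28.0% in granular layer-like cells. Of these 3 clusters the granular layer-like one thus had the smallest KRT1 part in both libraries. The spread of the KRT1 part between cells was 5.66 and 3.76 times the binomial one in the KRT4-led cluster. In the endothelial-like cells, which are shallower, it was 0.966 and 0.941 times. The observed standard deviations were closer, at 14.7 and 13.1 percentage points in KRT4-led and 11.7 and 12.4 in endothelial-like cells.

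Summed over cells, the basal pair went down and the suprabasal pair up from the shallowest cells to those of 20000 to under 50000 UMIs in both libraries, but not steadily. The suprabasal level of the median cell went from 296 to 543 in CT-LCG but from 195 down to 32.6 in FT-LCG. In the deepest class of 50000 UMIs or more both pairs were below their shallowest levels in both libraries. The makeup of the depth classes changed too. Cells were placed by their UMIs outside the 4 genes, and levels are again UMIs per 10000 UMIs. In CT-LCG the basal pair stood at 86.2 in the 529 cells under 1000 UMIs, at 61.2 from 2000 to under 5000 and at 140 from 10000 to under 20000. It then stood at 33.0 from 20000 to under 50000 (394 cells). The suprabasal pair stood at 312 under 1000, at 227 from 5000 to under 10000 and at 560 from 20000 to under 50000. In the 28 cells of 50000 or more the pairs stood at 27.5 and 277. In the class of 20000 to under 50000 UMIs the basal pair was 0.38 times and the suprabasal pair 1.79 times its level under 1000 UMIs.

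In FT-LCG the basal pair stood at 198 in the 1220 cells under 1000 UMIs, at 345 from 5000 to under 10000 and at 162 from 20000 to under 50000 (697 cells). The suprabasal pair stood at 216, 173 and 255 in these classes, with its highest level of 294 from 10000 to under 20000. In the 91 cells of 50000 or more the pairs stood at 158 and 107. The ratios of the class of 20000 to under 50000 UMIs to that under 1000 were 0.82 and 1.18. Neither pair moved steadily in 1 direction in either library. From the class under 1000 UMIs to that of 20000 to under 50000 the makeup changed. The share of cells in the basal epidermal-like, granular layer-like and KRT4-led clusters went from 0.378% to 96.4% in CT-LCG. In FT-LCG it went from 2.30% to 53.2%, with its highest value of 75.7% from 10000 to under 20000. The share in the inner root sheath-like cluster went from 77.5% to 0.254% and from 67.0% to 1.29%.

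**Figure D4:**
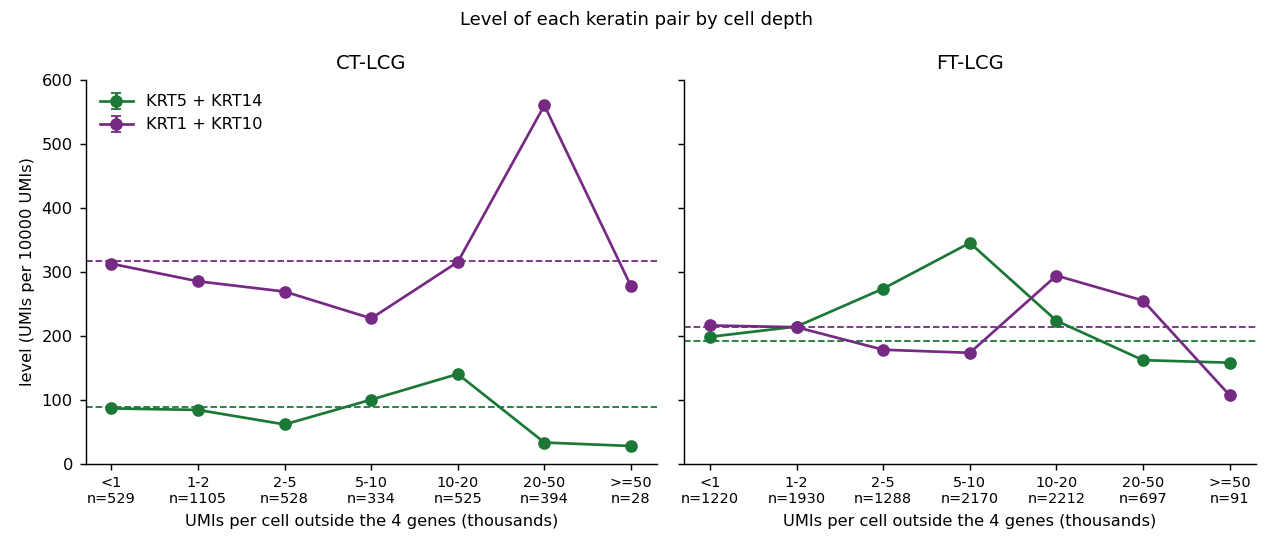
Level of the basal pair and of the suprabasal pair (UMIs per 10000) by class of cell depth, counted outside the 4 genes, in CT-LCG and FT-LCG. In CT-LCG the pairs lie farthest apart from 20000 to under 50000 UMIs, at 33.0 and 560, and in FT-LCG the basal pair is highest, at 345, from 5000 to under 10000. Dashed lines mark the barcodes not kept.

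Over single cells, the rank correlation of the level with depth was -0.39 for the basal pair and 0.04 for the suprabasal pair in CT-LCG (n = 3443), and -0.11 and -0.17 in FT-LCG (n = 9608). These are descriptions over cells of 1 library that share its cell types. Mixed cells made up 87.1% and 96.1% of cells under 1000 UMIs and 13.5% and 37.4% from 20000 to under 50000. In the deep class of CT-LCG 83.7% of cells were suprabasal-dominant, while in that of FT-LCG 31.1% were basal-dominant and 31.4% suprabasal-dominant.

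Within clusters the change with depth took several forms. In the inner root sheath-like cluster of FT-LCG the basal pair stood at 216, 220 and 219 in the 3 classes under 5000 UMIs and the suprabasal pair at 227, 227 and 286. In that of CT-LCG the basal pair stood at 81.4, 86.8 and 48.5 and the suprabasal pair at 332, 328 and 427, with 40 cells in the last class and 44 in that of FT-LCG. In the KRT4-led cluster of CT-LCG the basal pair stood at 29.7, 37.2, 30.4 and 12.1 in the 4 classes from 2000 to under 50000 UMIs, and the suprabasal pair at 584, 474, 486 and 607. In that of FT-LCG the basal pair stood at 119, 167, 170, 85.7 and 62.9 in the 5 classes from 1000 to under 50000 UMIs, and the suprabasal pair at 605, 521, 437, 580 and 653. In both libraries this cluster thus had its lowest suprabasal and highest basal level from 5000 to under 10000 UMIs and its lowest basal level from 20000 to under 50000. In the basal epidermal-like cluster of CT-LCG the suprabasal pair stood at 108, 159 and 224 from 5000 UMIs upward, with 33 cells in the deepest class, and in that of FT-LCG at 32.2, 35.9 and 46.0. In FT-LCG cells like the outer root sheath or bulge the basal pair made up 70.9% of the 4 genes' UMIs in the 32 cells under 1000 UMIs and 98.7% in the 29 cells from 20000 to under 50000.

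Across clusters each gene had its highest level in the same cluster of both libraries. KRT5 and KRT14 were highest in the basal epidermal-like cluster, at 94.1 and 198 in its 337 CT-LCG cells and 157 and 326 in its 1866 FT-LCG cells. COL17A1, TNS4, POSTN and CCL27 were among the leading genes of that cluster. For KRT5 the clusters like the outer root sheath or bulge (74.6 and 143) and led by ACTG2 (56.7 and 151) followed, in an order that differed between the libraries, and the PAEP-led cluster (38.0 and 101) came next. The ACTG2-led cluster is unnamed because its leading contractile genes were found in few of its cells: TAGLN in 9.63% and 5.46%. The lowest KRT14 levels were those of the granular layer-like cluster, at 2.01 and 12.7. For KRT5 the lowest clusters were the mast cell-like one in CT-LCG (3.32 in 64 cells), followed by the fibroblast-like one (3.99), and the endothelial-like one in FT-LCG (13.2).

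KRT1 and KRT10 were highest in the KRT4-led cluster, at 232 and 333 in its 668 CT-LCG cells and 182 and 377 in its 1910 FT-LCG cells. This cluster was left unnamed, since none of its top 10 genes was a listed marker. The granular layer-like cluster, led by LOR, was next, at 194 and 331 in 154 CT-LCG cells and 108 and 277 in 463 FT-LCG cells. For KRT1 the ACTG2-led cluster had the next level in both libraries, at 165 and 97.2, followed by the inner root sheath-like (136 and 55.2) and PAEP-led (157 and 31.4) clusters in no common order. In the basal epidermal-like cluster KRT1 stood at 74.5 and 14.0 and KRT10 at 88.0 and 21.8. Endothelial-like cells held 63.7 and 14.5 of KRT1 and 89.0 and 25.6 of KRT10, and fibroblast-like cells 16.1 and 13.1 of KRT1 and 20.4 and 19.4 of KRT10. The CT-LCG levels of the basal epidermal-like cluster were thus near those of endothelial-like cells but above those of fibroblast-like cells, and its FT-LCG levels were near both. Outer root sheath- or bulge-like cells were lowest for both genes, at 11.5 and 4.09 for KRT1 and 14.9 and 7.59 for KRT10.

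**Figure D5:**
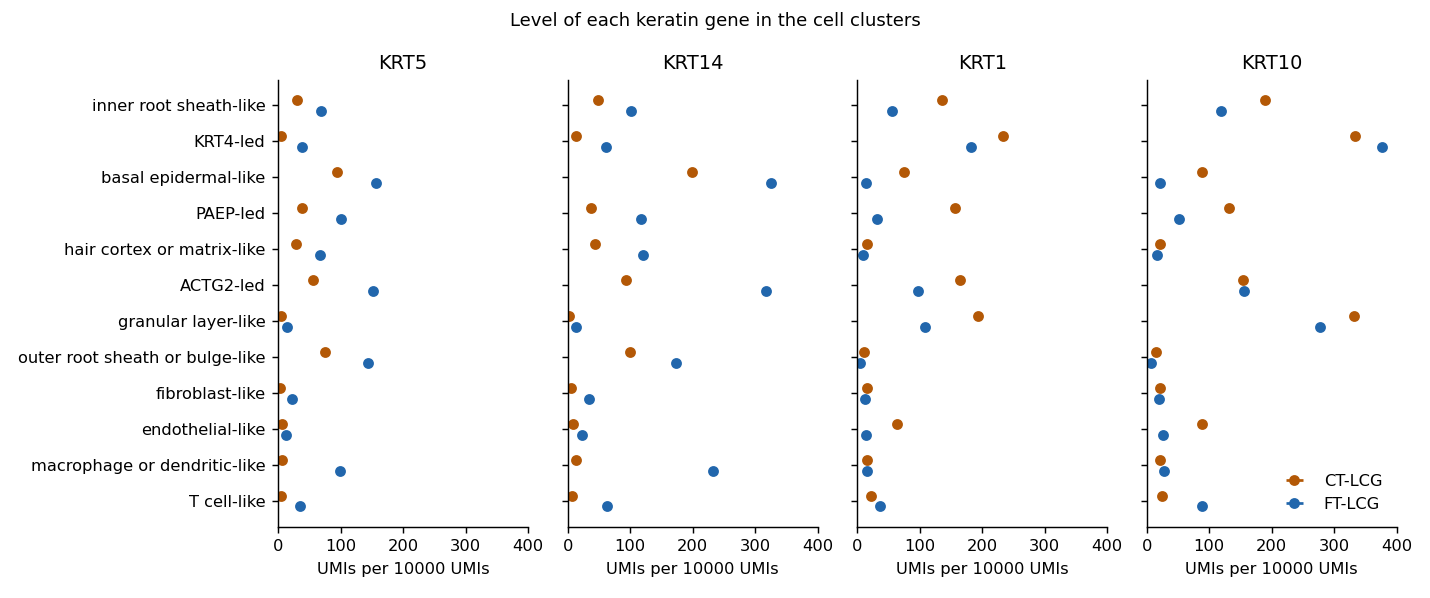
Level of KRT5, KRT14, KRT1 and KRT10 (UMIs per 10000, linear axis) in each cluster of CT-LCG and FT-LCG, with clusters made without the 4 genes. KRT5 and KRT14 are highest in the basal epidermal-like cluster and KRT1 and KRT10 in the KRT4-led cluster in both libraries.

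With another random seed, the cells grouped differently and each of the 4 genes was highest in a cluster led by another gene than in the main clustering. KRT5 and KRT14 were then highest in a cluster led by contractile genes, at 134 and 259 on the mean of both libraries, KRT1 in an unnamed cluster led by KRT9, at 200.4, and KRT10 in the granular layer-like cluster, at 359. Of the leading genes of that KRT9-led cluster, KRT9, CCL20 and LOC102186527 were also among those of the KRT4-led cluster. With no keratin among the variable genes only KRT5 moved, to a cluster led by TAGLN. In the other 4 alternatives KRT14 stayed in a cluster led by CCL27, and KRT1 and KRT10 in one led by KRT4 or by S100A7A and KRT4. KRT5 stayed as well, except with 20 principal components, where its highest basal epidermal-like cluster was led by LOC108634746.

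The macrophage- or dendritic-like cluster went against its name in FT-LCG. KRT14 stood at 233 in its 77 FT-LCG cells and at 14.2 in its 30 CT-LCG cells, and KRT5 at 98.4 and 6.07. Its KRT1 levels were 15 and 15.4. Doublets were not removed, since the caller marked 0 cells in either library, and their part in this KRT14 level was not tested.

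The profile of each gene over 12 clusters, those with at least 20 cells in each library, was compared with 1096 other genes by Pearson r of log2(1 + level), taking the lower value of the 2 libraries. The partner in the pair was the most alike in every case, with r = 0.95 for KRT5 and KRT14 and r = 0.99 for KRT1 and KRT10. After KRT14, KRT5 was most like COL17A1 (0.91), a collagen of the hemidesmosomes that fasten basal cells to the basement membrane, LOC102179515 (0.89), S100A2 (0.87) and the desmosomal cadherin DSC3 (0.85). KRT14 was most like COL17A1 (0.91), S100A2 (0.88), the matrix protein POSTN (0.86) and LOC102179515 (0.84). KRT1 was most like LOC102186527 (0.96), the desmosomal cadherin DSC1 (0.93), KRTDAP (0.90), a keratinocyte differentiation-associated protein, and PDZK1IP1 (0.88). KRT10 was most like LOC102186527 (0.96), KRTDAP (0.93), LOC102180547 (0.92) and LYPD3 (0.90). Between the pairs r lay from -0.07 to 0.08 in CT-LCG and from -0.29 to -0.23 in FT-LCG. The clusters of 1 library share its free RNA and were made from many of these genes.

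Between the libraries, the basal pair was higher and the suprabasal pair lower in FT-LCG. Over all cells the basal pair stood at 75.7 (CT-LCG) and 229 (FT-LCG), a ratio of 3.03 (3.02 to 3.05), and the suprabasal pair at 400 and 234, a ratio of 0.586 (0.584 to 0.587). The intervals leave out any variation between goats, which 1 goat per type cannot show. By gene the ratios were 3.23 for KRT5, 2.93 for KRT14, 0.461 for KRT1 and 0.673 for KRT10. Among the 13014 genes with at least 100 UMIs they stood at percentiles 96.9, 96.2, 5.84 and 17.0. KRT5 and KRT14 were more than 2-fold higher in FT-LCG, as were 8.41% of all genes, and KRT1 was more than 2-fold higher in CT-LCG, as were 7.24%.

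For the pairs the direction was the same at every depth. In the 7 depth classes the FT-LCG to CT-LCG ratio of the basal pair ran from 1.60 to 5.73 and that of the suprabasal pair from 0.385 to 0.933. KRT10 alone was not lower in FT-LCG from 5000 to under 10000 (1.01) and from 10000 to under 20000 UMIs (1.13). Among the 12 clusters the basal pair was higher in FT-LCG in all, from 1.65 times for basal epidermal-like to 16.3 times for macrophage- or dendritic-like cells. The suprabasal pair was lower in FT-LCG in 10 of them, and higher in the macrophage- or dendritic-like (1.17) and T cell-like (2.68) clusters. These ratios are of UMIs summed over cells, and as means over cells both genes were lower in FT-LCG in these clusters too. With FT-LCG first, KRT1 stood at 14.8 and 36.9 in macrophage- or dendritic-like and at 21.3 and 35.1 in T cell-like cells. KRT10 stood at 24.8 and 45.6 and at 39.4 and 41.0. In the KRT4-led cluster, where the suprabasal pair is highest, it was almost the same in both libraries (0.989), with KRT1 at 0.785 and KRT10 at 1.13 times, while the basal pair stood at 18.8 and 101 (5.36 times). In the basal epidermal-like cluster the basal pair stood at 292 and 483 and the suprabasal pair at 163 and 35.9 (0.221 times).

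Cells that should lack these genes differed between the libraries too. Endothelial-like cells of FT-LCG had 2.32 times the basal and 0.263 times the suprabasal pair of those of CT-LCG, and fibroblast-like cells 6.34 and 0.889 times. In the barcodes not kept the ratios were 2.16 and 0.676. The part that free RNA of each library had in the ratios of the epidermal clusters was not tested.

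Other genes were set against the keratin classes, as UMIs per 10000 UMIs without the 4 genes, summed over the 147 CT-LCG and 2845 FT-LCG basal-dominant and the 1177 and 1505 suprabasal-dominant cells. Genes of attachment to the basement membrane and of the cell cycle were higher in basal-dominant cells, and those of late epidermal differentiation in suprabasal-dominant cells. At 50 UMIs or more per library 10058 genes were compared, and 844 (8.39%) were at least 2-fold higher in basal-dominant cells of both libraries and 674 (6.7%) in suprabasal-dominant cells. The classes also differed in depth and makeup: median UMIs were 13730 and 8845 in basal-dominant and 10284 and 12843 in suprabasal-dominant cells, for CT-LCG and FT-LCG. Of basal-dominant cells 82.3% and 56.8% were in the basal epidermal-like, granular layer-like and KRT4-led clusters, and of suprabasal-dominant cells 61.9% and 88.7%. Within those clusters alone 661 and 833 genes were called, of which 557 and 614 were also called over all cells, and 0 changed direction. The 50 UMIs were counted over both classes together, so a gene could pass through the class where it is high alone, and the counts per list are descriptions. Values below are log2 ratios of basal- over suprabasal-dominant cells, CT-LCG first, and the median over all genes tested was 0.05 and 0.19.

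Of the basement membrane adhesion genes 11 of the 13 measured were higher in basal-dominant cells and 0 in suprabasal-dominant cells, with a median of 3.29 and 3.65. LAMB3, a chain of laminin-332 in the basement membrane, stood at 5.62 and 5.60. ITGB4, the integrin chain of hemidesmosomes, stood at 5.03 and 5.24, and the cytoskeletal linker DST at 4.07 and 4.34. Of the cell cycle genes 11 of 13 were higher in basal-dominant cells and 0 in suprabasal-dominant cells, with a median of 2.77 and 3.72. BIRC5 stood at 5.19 and 5.01, CENPF at 4.70 and 4.07 and UBE2C at 3.67 and 4.15, all genes of mitosis. In the 3 epidermal clusters alone 11 of 12 adhesion and 7 of 9 cell cycle genes measured were called on the basal side. LAMB3, BIRC5 and CENPF had under 50 UMIs there. MKI67, the usual marker of cycling cells, had under 50 UMIs in CT-LCG and was not counted.

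Of the late differentiation genes 17 of 18 were higher in suprabasal-dominant cells and 0 in basal-dominant cells, with a median of -4.06 and -3.20. KRTDAP stood at -4.98 and -5.08, at 136 and 160 UMIs per 10000 in suprabasal-dominant and 4.33 and 4.74 in basal-dominant cells. The peptidases KLK7 and KLK5, which help to shed the outermost layer, stood at -4.52 and -4.36 and at -5.18 and -4.26. The remaining gene, the transglutaminase TGM3, was not called, at -0.92 and 0.56.

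Desmosome and cell junction genes did not move as a group. Of 13 measured, 3 were higher in basal-dominant cells and 3 in suprabasal-dominant cells, with a median of -0.98 and -0.63. On the basal side were the desmogleins DSG3 (3.43 and 2.81) and DSG2 (3.14 and 2.51) and the classical cadherin CDH3 (3.89 and 2.56). On the suprabasal side were DSG1 (-1.58 and -1.37), DSC1 (-2.34 and -2.70) and CDSN, the last on 3 UMIs in the basal-dominant cells of CT-LCG. In the 3 epidermal clusters alone 3 of 13 were called on the basal and 5 on the suprabasal side, where DSP and JUP were added.

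Of 32 transcription regulators and Notch pathway genes of the epidermis 4 were higher in basal-dominant and 7 in suprabasal-dominant cells, with a median of -0.27 and -0.25. The basal 4 were OVOL2 (3.23 and 3.92), the Notch ligands JAG2 (3.10 and 3.22) and DLL1 (2.70 and 3.17), and GRHL2 (1.31 and 1.47). In the 3 epidermal clusters alone OVOL2 had under 50 UMIs. The largest differences on the suprabasal side were those of GRHL3 (-3.01 and -3.27), CEBPA (-2.51 and -3.03) and PRDM1 (-2.53 and -2.46), and GRHL1, ZNF750 and KLF4 were also on that side. TP63, a regulator of the basal layer, stood at 0.76 and 2.04 and was not called.

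Of 13 other keratins measured, 4 were higher in basal-dominant cells and 6 in suprabasal-dominant cells, with a median of -0.52 and -1.67. KRT8 (5.36 and 4.90), KRT19 (7.02 and 4.87), KRT7 (6.87 and 4.56) and KRT6A (2.63 and 2.96) were on the basal side. KRT8, KRT19 and KRT7 are keratins of simple and glandular epithelia, KRT19 also of the follicle bulge, and KRT6A one of the outer root sheath. In the 3 epidermal clusters alone only KRT19 was still called on the basal side: KRT6A was not, and KRT7 and KRT8 had under 50 UMIs. KRT4 (-6.26 and -7.03), KRT2 (-5.38 and -5.79), KRT77 (-4.08 and -5.39) and KRT80 (-3.02 and -2.72) were on the suprabasal side. KRT23 and KRT3 were too, on 3 and 0 UMIs in the basal-dominant cells of CT-LCG. KRT2 and KRT77 are the neighbours of KRT1 on chromosome 5.

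Over all genes, the 10 largest differences on the basal side were those of DLK2, MMP7, CCL27, SCUBE2, LAMB3, MXRA5, TNS4, KIAA0101, LOC102179515 and C1QTNF1. For 5 of them, DLK2, SCUBE2, LAMB3, MXRA5 and C1QTNF1, the suprabasal-dominant cells of CT-LCG held 3 to 10 UMIs, so their order is loose. In the 3 epidermal clusters alone CCL27, SCUBE2, TNS4 and LOC102179515 were still called. There DLK2, MMP7, LAMB3, MXRA5, KIAA0101 and C1QTNF1 had under 50 UMIs. CCL27, a chemokine that draws T cells to the skin, stood at 6.34 and 5.93 and at 13.9 and 20.9 UMIs per 10000 in basal-dominant cells. LOC102179515 was the most abundant of the 10, at 24.1 and 48.0. The 10 on the suprabasal side were KRT4, AQP5, SPINK7, LYPD2, S100A7A, KRT2, LOC108633164, SERPINA12, SUSD2 and SERPINE2, with 3 to 5 UMIs of AQP5, SERPINA12 and SUSD2 in the basal-dominant cells of CT-LCG. Of these S100A7A was the most abundant, at 153 and 76.4 UMIs per 10000 in suprabasal-dominant and 3.30 and 0.937 in basal-dominant cells.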

How the data were processed

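The authors prepared 2 libraries with a 10x Genomics 3' kit (V3), processed them with Cell Ranger 3.0.2 and deposited 1 joint matrix of UMI counts (whole numbers, not normalized) for 17299 barcodes, with a table that assigns the 13051 kept cells to a library. Kept cells have over 500 genes. The genome build is not given clearly in the sources used here: the labels name human and mouse builds, while 27103 of 27137 gene identifiers matched goat RefSeq.

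From the counts, levels were computed as UMIs per 10000 with exact Poisson intervals, and shares with Clopper-Pearson intervals. Cells were thinned without replacement to 1000 UMIs (seed 1). Clusters were made without the 4 genes (Python 3.11.15, scanpy 1.11.5, leidenalg 0.10.2): 2000 variable genes chosen within each library, 10 principal components, a rewritten Harmony step for library, 20 neighbours and the lowest Leiden resolution giving at least 13 clusters. A cluster took a name when at least 3 listed markers were detected, with a mean fold of at least 2 over the other cells, at least 1 was in its top 10 genes, and at least 25% of its cells held a UMI of those in the top 10. This last rule was added after seeing the data. Scrublet marked 0 cells, so doublets were not removed.

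Calls for other genes needed a 2-fold difference in both libraries and at least 50 UMIs in each. No p-values were computed, since there was 1 library per type. The calls were tested on simulated data. The genes named are the 4 keratins, the 5 most alike in profile to each, the 3 list members with the largest difference each way, all members behind counts of 5 or fewer, and the 10 largest differences each way. KRT77, KRT80, KRT3, TP63, MKI67, GRHL1, ZNF750 and KLF4 were named after their values were seen. The 4 genes, the gene lists and the markers were chosen with earlier results of these data known. Nearest relatives by protein sequence were not analysed here.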

Additional observations from a re-analysis of the deposited data

Results flagged for a closer look

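All 4 keratins were found, far above the limit that a count of 0 allows (0.0151 UMIs per 10000 for CT-LCG, 0.0301 for FT-LCG), in barcodes that the deposited cell table did not keep and that no comparison between clusters used. In the 2659 such barcodes of CT-LCG the levels were 35.4 for KRT5, 53.5 for KRT14, 137 for KRT1 and 179 for KRT10 UMIs per 10000. In the 1589 of FT-LCG they were 81.9 for KRT5, 110 for KRT14, 77.7 for KRT1 and 136 for KRT10. The order of the 4 genes in these barcodes was that of the kept cells for CT-LCG. In FT-LCG too, KRT10 was highest, followed by KRT14, KRT5 and KRT1, as in the kept cells. Whether these barcodes hold cells, cell fragments or free RNA was not tested.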

How the results depend on the processing

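No paired analysis was possible because each type has 1 library and the libraries carry no shared replicate number. Of 80 recomputed main results 28 kept their value within counting error (counts within 1.5 times), 52 moved and 0 changed direction. The shares of cells among them have no direction to change. The share of cells with both pairs (78.1% in CT-LCG, 78.4% in FT-LCG) became 59.9% and 56.6% with 2 UMIs required, 99.3% and 99.7% without thinning, 64.5% and 72.2% in cells with at least 1000 genes, 66.3% and 56.6% with 10% free RNA subtracted, and 28.9% and 24.4% above the non-epithelial limit. In FT-LCG it was 86.7% at 2000 UMIs. At 1000 UMIs per cell the free RNA subtraction took 1 UMI of each gene in FT-LCG, so there it only repeated the rule of 2 UMIs. The profile subtracted was that of the barcodes not kept, which were not shown to hold free RNA. The mixed share (61.4% and 54.1%) became 36.4% and 42.9% with limits of 0.2 and 0.8, 59.5% and 51.2% with at least 20 UMIs, 66.8% and 63.6% with 10 UMIs drawn per cell, 41.3% and 36.8% with at least 1000 genes, 52.5% and 44.1% with free RNA subtracted, and 26.7% and 30.4% in the epidermal clusters alone.

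The deep over shallow ratio in CT-LCG became 0.43 and 0.42 (basal pair) and 1.86 and 1.76 (suprabasal pair) with depth counted with the 4 genes and with a mean over cells. In FT-LCG the same settings gave 0.85 and 0.79, and 1.42 and 1.25, and leaving out the top 5% of doublet scores gave 0.76 and 1.2. The FT-LCG to CT-LCG ratio of the basal pair became 2.96 with depth classes weighted equally, 2.87 as a mean over cells, 3.07 with at least 1000 genes, 2.70 with clusters weighted equally, 3.00 in the epidermal clusters and 2.16 in barcodes not kept. That of the suprabasal pair became 0.64, 0.68, 0.58, 0.70, 0.72 and 0.68. Under another seed the highest cluster of each of the 4 genes was led by another gene than in the main clustering.

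Genes higher in basal-dominant cells (844) became 1325 with at least 20 UMIs, 307 with at least 200, 1599 at 1.5-fold and 71 with cells thinned to 1000 UMIs, of which 67 were among the 844. Those higher in suprabasal-dominant cells (674) became 1199 at 1.5-fold and 278 with thinned cells, of which 229 were among the 674. Thinned cells hold fewer UMIs, but how many genes still reached the 50 UMIs required is not given here. The cause of these shifts was not tested. Among values for single genes and gene pairs, 67 of 204 stayed within counting error, 137 moved and 0 changed direction. These values are shares and levels, which have no direction to change, so that 0 was fixed in advance. The settings that use barcodes not kept, shared barcodes, the non-epithelial limit or the epidermal clusters were chosen after seeing the data.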
